A study of Mus musculus with 4 samples.

Results

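The aminoacyl-tRNA synthetases of the embryonic mouse gonad were followed through the 4 libraries of the series. They were taken by gene symbol from the deposited tables, and all 35 listed genes were found among 40999 features. Of these, 20 encode cytosolic enzymes or subunits and 15 encode mitochondrial enzymes, whose symbols end in 2. Lars2, the mitochondrial leucyl enzyme, was left out because its counts follow ribosomal RNA (rRNA). The gonads came from C57BL/6J wild-type embryos, collected on 4 successive days from E11.5 to E14.5. XX and XY gonads, no fewer than 6 of either sex and taken from 2 litters, went into 1 pool a day, so the sexes cannot be told apart. The genital ridge at E11.5 still carried its mesonephros, which was dissected away from E12.5 on. Each pool gave 1 stranded library depleted of rRNA, and with 1 library per time point no difference below has a replicate check.

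An aminoacyl-tRNA synthetase joins an amino acid to its matching tRNA, the step at which the genetic code is matched to protein. The cytosol and the mitochondrion mostly use separate enzymes, all encoded in the nucleus, and the mitochondrial ones serve the few proteins made from mitochondrial DNA. In the cytosol several synthetases sit together in the multi-synthetase complex, and several synthetase genes are known targets of ATF4, the transcription factor of the amino acid and stress response.

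Deduplicated counts summed to between 25593453 and 31752562 per library, and rRNA features took from 8.72% of them at E13.5 to 48.9% at E14.5. Deposited TPM, which are per length and share 1 total per library, are therefore used mainly to order genes within a library. Levels across libraries are in CPM, counts scaled for depth and composition by TMM. The gonadal markers Gata4, Wt1, Nr5a1, Lhx9 and Emx2 were counted in every library, with a summed level between 685 and 1077 CPM, and Insl3 at E11.5 was the single listed cell type marker with a count of 0. The cell type lists moved between days. Their summed levels from E11.5 to E12.5 went from 128 to 26.9 CPM for 6 mesonephric markers, from 44.7 to 17.2 CPM for 5 macrophage markers, from 14.2 to 288 CPM for 6 germ cell markers, from 92.7 to 532 CPM for 5 Sertoli markers and from 1381 to 3180 CPM for 7 erythroid markers. That of 5 pregranulosa markers went from 121 to 173 CPM. The summed level of 5 fetal Leydig markers was 12.8, 164, 680 and 1121 CPM in order of age. In pooled tissue, fewer cells of a type and less RNA per cell cannot be told apart, and the part of these cell types in the values below was not tested.

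Every synthetase was well counted. Cytosolic genes had between 398 and 6355 counts in a library and mitochondrial ones between 132 and 3389, far above the 3 counts that a count of 0 would allow. The 35 genes lie on 15 chromosomes of mm10. Hars and Hars2, the cytosolic and mitochondrial histidyl enzymes, lie back to back on chromosome 18, with 26 bases between them. Hars runs on the minus strand from 36766528 to 36783205, and Hars2 on the plus strand from 36783232 to 36792562. Eprs and Iars2 are neighbours on chromosome 1, with a gap of 33600 bases. The exons of the 35 genes overlapped 0 bases of any other listed feature on the same strand. On the opposite strand, Sgpp2 shares 795 exonic bases with Farsb, Ddit3 shares 332 with Mars, C77080 shares 120 with Yars and Rab3gap2 shares 85 with Iars2. The kit keeps strand, but the strand setting of the counting is not given in the sources used here. A stretch of at least 100 bases with at least 95% identity to a transcript of another gene was found in 4 of the 35, Aars, Cars2, Farsa and Tars2, and was longest for Aars with Exosc6, at 1326 bases.

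Cytosolic synthetases stood well above mitochondrial ones. The median TPM of the cytosolic genes was 27.4, 33.8, 35.1 and 11.2 in order of age, against 7.13, 9.15, 10.1 and 3.31 for the mitochondrial genes. Between 10 and 11 of the 15 mitochondrial genes lay under the lowest cytosolic gene of the same library. The low values at E14.5 were shared by both classes. Over all tested genes, the log2 ratio of deposited TPM between E14.5 and E13.5 had a median of -1.63.

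**Figure D1:**
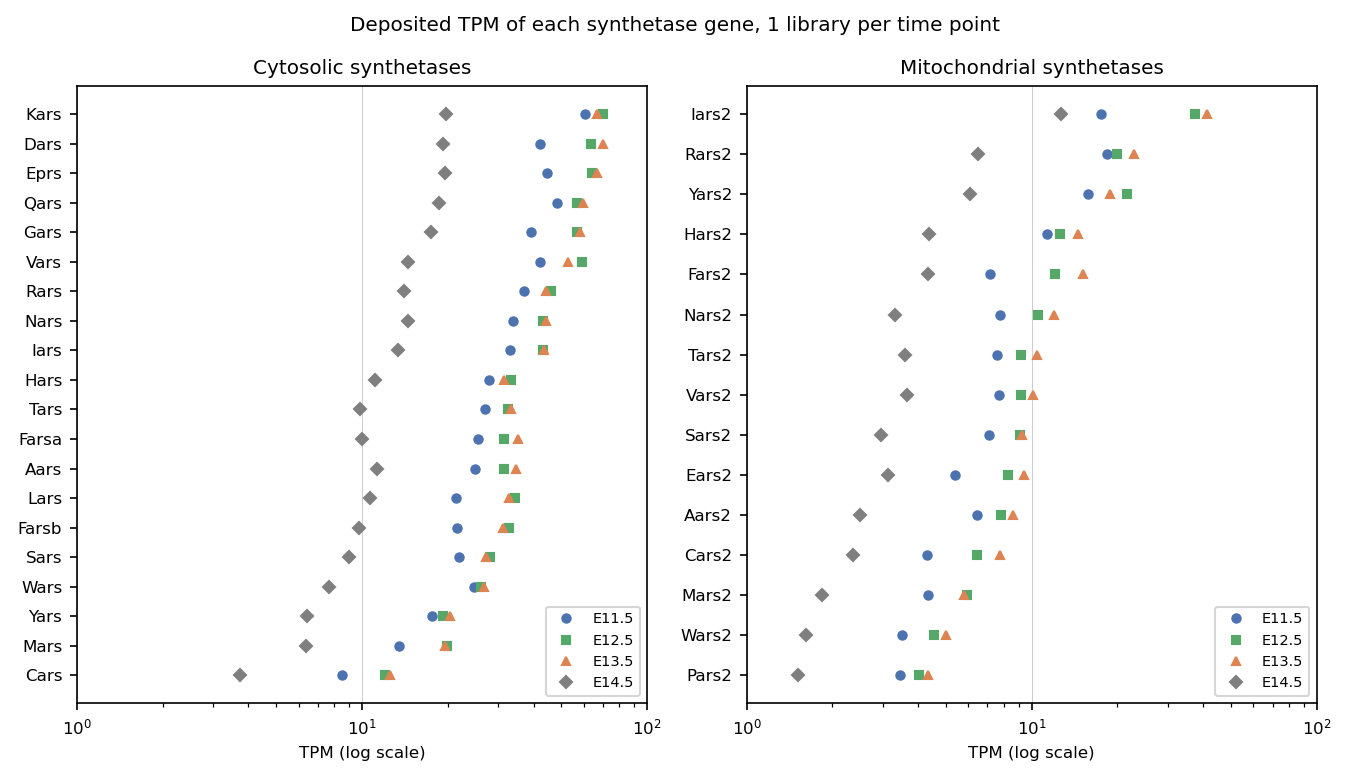
Deposited TPM (log axis) of each synthetase gene in the 4 libraries, with 20 cytosolic and 15 mitochondrial genes shown apart and ordered by mean TPM. Values at E14.5 are the lowest for every gene, and Iars2 is the mitochondrial gene that stands out from E12.5 on, at 37.4 TPM.

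Kars, the lysyl enzyme, which also serves mitochondria, had the highest mean TPM, with 60.5, 69.9, 66.6 and 19.7 TPM in order of age. Dars, the aspartyl enzyme, had 42.1, 63.8, 70.2 and 19.2 TPM. Eprs, which charges both glutamate and proline tRNAs with 1 long protein, had 44.5, 64.2, 66.9 and 19.5 TPM. These genes held the top 3 places of all 35 from E12.5 on, and at E11.5 Qars, the glutaminyl enzyme, was in second place with 48.4 TPM. Gars, the glycyl enzyme and the other gene that serves both compartments, ranked 5 or 6 throughout. The lowest cytosolic gene was Cars, the cysteinyl enzyme, with 8.50, 12.1, 12.51 and 3.73 TPM. Mars, the methionyl enzyme, had the next lowest mean, with 13.45, 19.9, 19.6 and 6.36 TPM.

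The phenylalanyl enzyme is built from equal numbers of the Farsa and Farsb proteins, and their RNAs lay close together. The ratio of Farsa to Farsb TPM was 1.19, 0.963, 1.13 and 1.03 in order of age. The log2 change of this ratio was beyond counting error from E11.5 to E12.5, at -0.30 (-0.47 to -0.13), with the bounds of the 95% interval in parentheses. It was 0.24 (0.08 to 0.40) over the following day and -0.14 (-0.34 to 0.06) over the last. Sgpp2, whose exons cover 31.3% of the Farsb exons on the opposite strand, had 206, 54, 180 and 160 counts in order of age. It was thus lowest at E12.5, where Farsb was highest in CPM, and its part in the Farsb counts was not tested.

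Among mitochondrial genes, the isoleucyl gene Iars2 had the highest mean, with 17.5, 37.4, 41.3 and 12.7 TPM. Rars2, the arginyl enzyme, had 18.3, 19.8, 22.9 and 6.50 TPM, and Yars2, the tyrosyl enzyme, had 15.8, 21.6, 18.8 and 6.06 TPM. Pars2, the prolyl enzyme, was lowest in every library with 3.46, 4.03, 4.35 and 1.51 TPM, and Wars2, the tryptophanyl enzyme, was next with 3.52, 4.54, 4.99 and 1.62 TPM. Iars2 ranked 20 of 35 at E11.5 and 10 from E12.5 on, above 11 of the 20 cytosolic genes, and from E12.5 on it was the single mitochondrial gene over the cytosolic median.

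Each cytosolic gene was set against its mitochondrial counterpart, which gave 15 pairs, with Eprs used for both Ears2 and Pars2. The cytosolic gene had the higher TPM in 14 pairs at E12.5 and in all 15 in the other libraries. The median TPM ratio was 3.58, 3.35, 3.20 and 3.05 in order of age. Yars and Yars2 were nearly level, with ratios of 1.11, 0.887, 1.08 and 1.06. The widest gap was that of Eprs to Pars2, with ratios of 12.9, 15.95, 15.4 and 12.9.

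The series asks which RNAs change between time points, so each library was compared with the one before it and, for gonads without mesonephros, E14.5 with E12.5. Log2 fold changes were taken after TMM scaling, are positive where the later library is higher, and carry a 95% interval for counting error only. A gene was called differentially expressed (DEG) at |log2 fold change| ≥ 1 and FDR ≤ 0.05 in edgeR's exact test with a preset biological coefficient of variation of 0.1, so that calls compare 2 libraries and not conditions. Of the 35 synthetases, 0 were DEGs in each of the 4 comparisons. Among all genes tested, 7.16% were called up and 7.15% down at E12.5 versus E11.5, and 1.27% and 0.606% at E13.5 versus E12.5. At E14.5 versus E13.5 the shares were 4.28% and 0.595%, and at E14.5 versus E12.5 they were 6.45% and 1.45%. Members whose interval excludes 0 are counted below as beyond counting error, beside the background, the share of tested genes with at least 100 counts in both libraries that did the same. This background is not matched to the members for counts, and genes with more counts pass the rule at smaller changes.

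**Figure D2:**
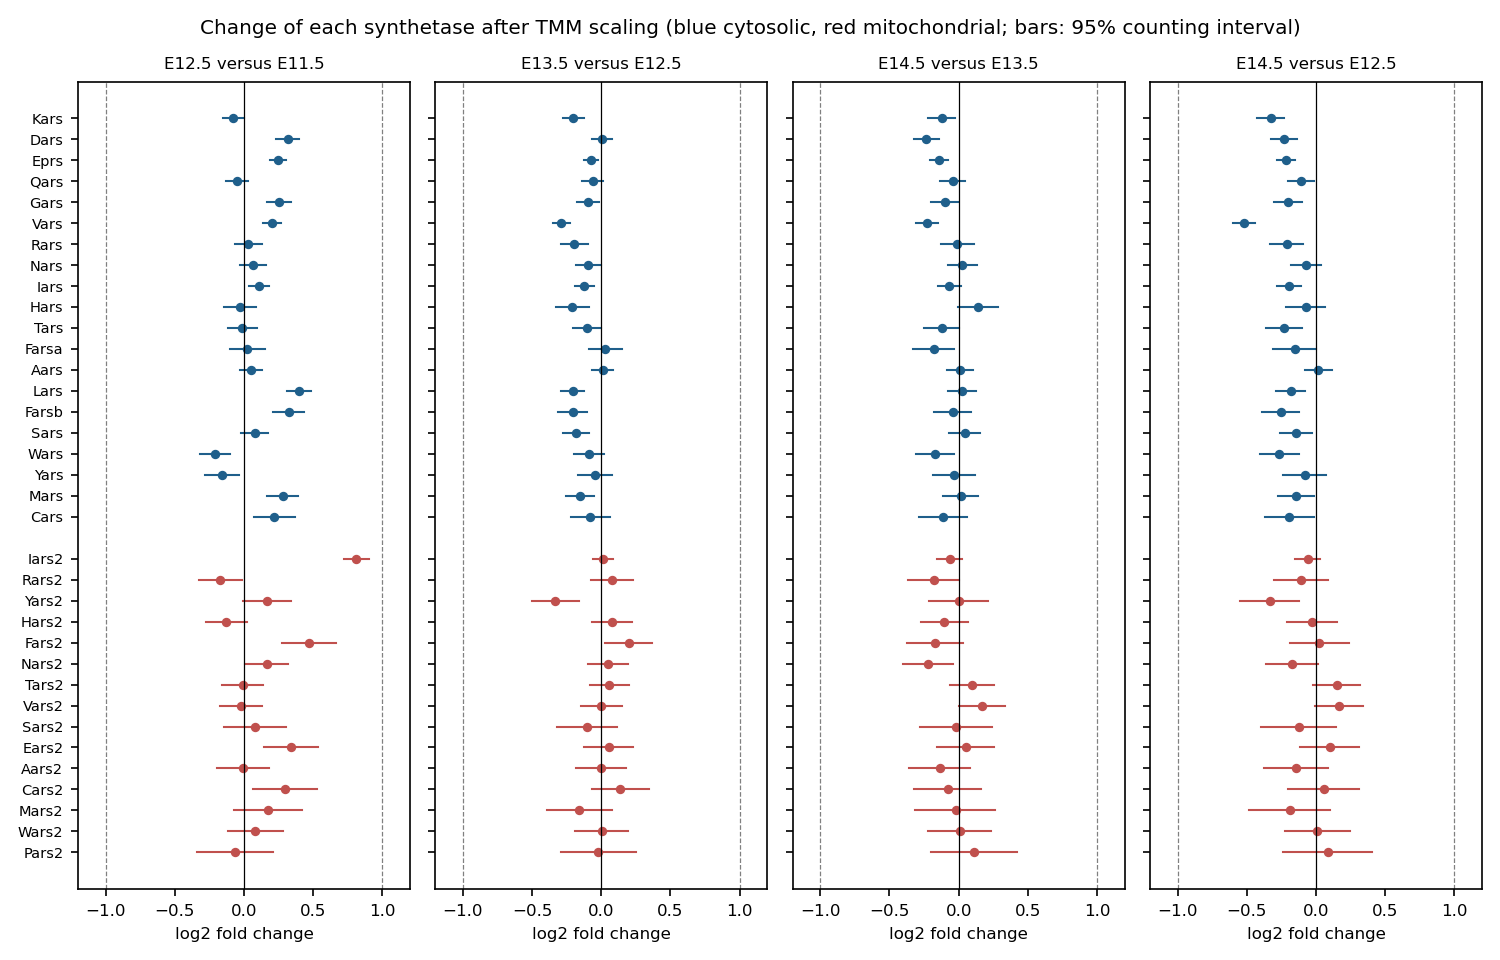
Log2 fold change of each synthetase after TMM scaling in 4 comparisons, cytosolic and mitochondrial genes in separate colours, with 95% counting intervals as bars and lines at the DEG limits of -1 and 1. All points lie inside the limits, with Iars2 at E12.5 the highest at 0.81 and Vars at E14.5 versus E12.5 the lowest at -0.52.

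From E11.5 to E12.5 the synthetases spread in both directions. The median log2 fold change was 0.07 for cytosolic genes (range -0.21 to 0.40) and 0.08 for mitochondrial genes (-0.17 to 0.81), against 0.01 for tested genes with at least 100 counts in both libraries. Beyond counting error, 14 of the 35 were higher and 4 lower, with backgrounds of 33.1% and 29.6%. Values were below 0 in 6 of 20 cytosolic and 6 of 15 mitochondrial genes, with a background of 48.4%. A log2 fold change of at least 0.5 was reached by 1 member, with a background of 10.8%. The mesonephros was in the earlier library alone, and its part was not tested.

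Iars2 was that member. It had 1658, 2663, 3389 and 1521 counts in order of age, or 48.4, 84.9, 85.6 and 80.8 CPM. The E11.5 library was thus low and the 3 later ones lay close together. The log2 fold change at E12.5 was 0.81 (0.72 to 0.90), a 1.76-fold higher level, and the changes of the following days were 0.01 (-0.06 to 0.08) and -0.07 (-0.15 to 0.02). Its cytosolic counterpart Iars had 96.1, 103, 95.2 and 89.8 CPM, and the log2 ratio of Iars to Iars2 counts changed at E12.5 by -0.70 (-0.82 to -0.59). The neighbouring gene Eprs was higher by 0.25 (0.19 to 0.30). Rab3gap2, whose exons share 85 bases with Iars2 on the opposite strand, had 1556 counts at E11.5 and 1661 at E12.5.

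**Figure D3:**
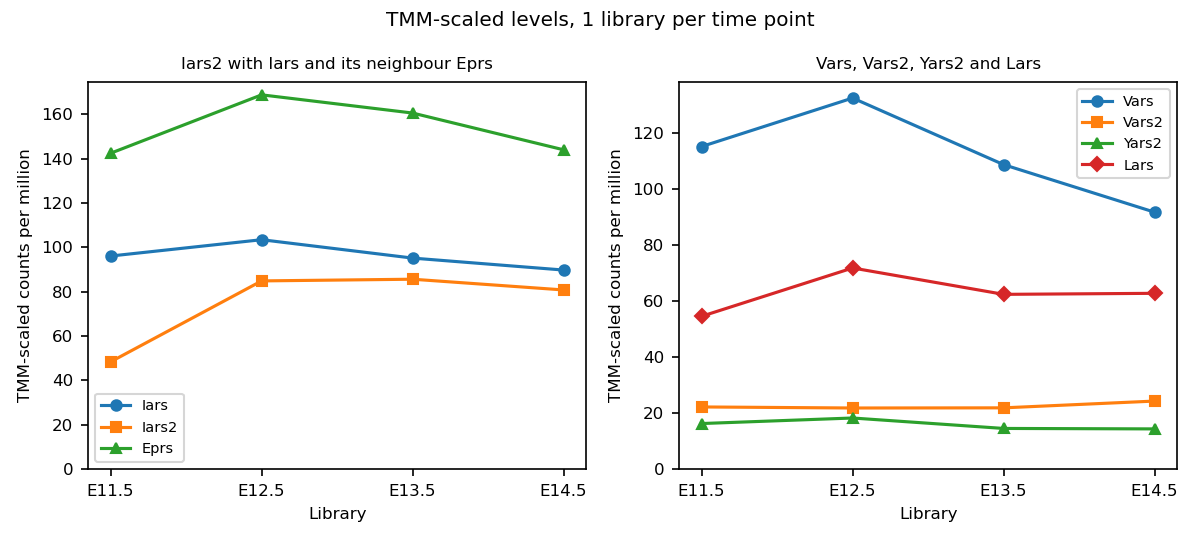
TMM-scaled level (CPM, y axis from 0) of Iars2, Iars and Eprs on the left and of Vars, Vars2, Yars2 and Lars on the right, with 1 point per library. Iars2 goes from 48.4 to 84.9 CPM between E11.5 and E12.5 and stays near that level, whereas Vars goes from 132 CPM at E12.5 to 91.7 CPM at E14.5.

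Fars2, the mitochondrial phenylalanyl enzyme, came next at E12.5. Its counts were 382, 484, 702 and 293 in order of age, with log2 fold changes of 0.47 (0.27 to 0.67), 0.20 (0.03 to 0.37) and -0.17 (-0.37 to 0.03) from day to day. Ears2, the glutamyl enzyme, was higher at E12.5 by 0.34 (0.14 to 0.53), Cars2 by 0.29 (0.06 to 0.53) and Nars2 by 0.16 (0.01 to 0.32). Rars2 was the single mitochondrial gene lower beyond counting error, at -0.17 (-0.33 to -0.02), with 760, 618, 823 and 341 counts, and its sign turned with the ratio of deposited TPM, at 0.11.

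Of the cytosolic genes at E12.5, 9 were higher and 3 lower beyond counting error. Lars, the leucyl enzyme, had the highest value, 0.40 (0.31 to 0.49), with 1869, 2252, 2468 and 1181 counts. Farsb at 0.32 (0.21 to 0.44), Dars at 0.31 (0.23 to 0.40) and Mars at 0.28 (0.17 to 0.39) followed. Wars, the tryptophanyl enzyme, was lowest at -0.21 (-0.32 to -0.10), with 1588, 1257, 1491 and 623 counts. Yars stood at -0.16 (-0.28 to -0.03) and Kars at -0.08 (-0.15 to -0.002). The negative values of Wars, Yars and Kars turned in sign with the ratio of deposited TPM, which shifts the median gene by 0.28 in this comparison, and those of Yars and Kars also with total counts, which shift it by 0.16.

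From E12.5 to E13.5 both libraries were low in rRNA, and most cytosolic genes were a little lower. The log2 fold change was below 0 for 17 of 20 cytosolic genes and 5 of 15 mitochondrial genes, with a background of 51.5%. Medians were -0.10 (range -0.29 to 0.03) and 0.01 (-0.33 to 0.20). Beyond counting error, 12 cytosolic genes were lower and 0 higher, and 1 mitochondrial gene was lower and 1 higher, with backgrounds of 23.7% for lower and 20.9% for higher. Counting intervals are narrower for the cytosolic genes, which have more counts. The ratio of deposited TPM, which shifts the median gene by 0.13, put the cytosolic median at 0.03 in place of -0.10 and 8 of the 20 genes below 0.

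Vars, the valyl enzyme, was the lowest cytosolic gene at E13.5. Its counts were 3945, 4155, 4300 and 1726, or 115, 132, 109 and 91.7 CPM, so that E12.5 was its highest library. Its log2 fold changes were 0.20 (0.14 to 0.27), -0.29 (-0.35 to -0.23) and -0.23 (-0.31 to -0.15) from day to day. Hars at -0.21 (-0.33 to -0.09), Farsb at -0.21 (-0.31 to -0.10), Lars at -0.21 (-0.29 to -0.12), Kars at -0.20 (-0.28 to -0.13) and Rars at -0.20 (-0.29 to -0.10) followed. Lars had 54.5, 71.8, 62.4 and 62.7 CPM and Farsb 35.4, 44.3, 38.5 and 36.9 CPM in order of age, so that both were highest at E12.5. For Farsb, the part of the overlapping Sgpp2 was not tested. The highest cytosolic value at E13.5 was that of Farsa, 0.03 (-0.09 to 0.15), with 1064, 989, 1275 and 529 counts.

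Beyond counting error at E13.5, Yars2 was the mitochondrial gene that was lower, at -0.33 (-0.50 to -0.16), with 557, 572, 574 and 270 counts. Fars2, at 0.20, was the one that was higher beyond it. Iars2 and Vars2 stood at 0.01 and 0.001.

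From E13.5 to E14.5 the median log2 fold change was -0.05 for cytosolic genes (range -0.23 to 0.14) and -0.02 for mitochondrial genes (-0.22 to 0.17), and -0.01 for tested genes with at least 100 counts in both libraries. Values were below 0 in 14 of 20 cytosolic and 9 of 15 mitochondrial genes, with a background of 51.5%. Beyond counting error, 7 cytosolic genes were lower and 0 higher, and 1 mitochondrial gene was lower and 1 higher, with backgrounds of 23.3% for lower and 20.6% for higher. Dars was lowest at -0.23 (-0.33 to -0.14), with 2345, 2669, 3384 and 1352 counts, and Vars was next. Farsa, at -0.18 (-0.33 to -0.03), Wars, at -0.17 (-0.31 to -0.03), and Eprs, at -0.14 (-0.20 to -0.07), were lower too. Hars had the highest cytosolic value, 0.14 (-0.001 to 0.28), with 1228, 1102, 1203 and 623 counts.

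Among mitochondrial genes at E14.5, Vars2 was higher by 0.17 (0.003 to 0.33), with 760, 684, 865 and 457 counts. Nars2, the asparaginyl enzyme, was lower, at -0.22 (-0.40 to -0.04), with 662, 679, 887 and 358 counts. The scaling matters most in this comparison. By total counts, which shift the median gene by -1.08, 31 of the 35 members would be called, and Vars2 would stand at -0.91.

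Over both days together, in gonads without mesonephros, the medians of the classes lay further apart. Between E12.5 and E14.5 the log2 fold change was below 0 in 19 of 20 cytosolic genes and 8 of 15 mitochondrial genes, with a background of 52.2%. The medians were -0.19 and -0.03, and their distance of -0.16 does not depend on the scaling of the libraries. Beyond counting error 16 cytosolic genes were lower and 0 higher. Yars2, at -0.33 (-0.55 to -0.12), was the single mitochondrial gene lower and 0 were higher, with backgrounds of 29.7% for lower and 25.2% for higher. The 4 endothelial markers were lower as well, with a median of -0.47 and a summed level of 317 CPM at E12.5 and 226 CPM at E14.5. Medians were also below 0 for the 5 gonadal markers (-0.45) and the 5 Sertoli markers (-0.25). They were above 0 for the mesonephric (0.08), pregranulosa (0.15), germ cell (0.18), erythroid (0.49), macrophage (0.61) and fetal Leydig (3.14) lists. The part of these cell types was not tested. This comparison shares its libraries with the ones above and is not independent of them.

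Vars, at -0.52 (-0.60 to -0.44), was the single member to reach -0.5 between E12.5 and E14.5, with a background of 3.81%. Kars stood at -0.33 (-0.43 to -0.23), Wars at -0.26 (-0.41 to -0.12) and Farsb at -0.25 (-0.39 to -0.12). Aars, the alanyl enzyme, was the 1 cytosolic gene above 0, at 0.02 (-0.08 to 0.11), and below it at -0.023 with total counts stripped of rRNA and top genes, with 72.3, 74.9, 75.6 and 75.2 CPM from E11.5 to E14.5.

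A ratio of counts inside 1 library does not depend on its depth or on the scaling. Summed over the genes, there were 4.77 cytosolic counts per mitochondrial count at E11.5 (4.67 to 4.89) and 4.39 at E12.5 (4.30 to 4.49). The ratio was 4.0 at E13.5 (3.92 to 4.08) and 3.90 at E14.5 (3.79 to 4.02). The log2 change from day to day was -0.12 (-0.17 to -0.07), -0.14 (-0.18 to -0.09) and -0.04 (-0.09 to 0.01). Without Iars2, a choice made after seeing the data, the ratios were 5.87, 6.08, 5.53 and 5.36, and the changes were 0.05 (-0.0006 to 0.10), -0.14 (-0.19 to -0.09) and -0.04 (-0.10 to 0.01). The lower ratio at E12.5 thus rested on Iars2, whereas that at E13.5 was there without it.

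**Figure D4:**
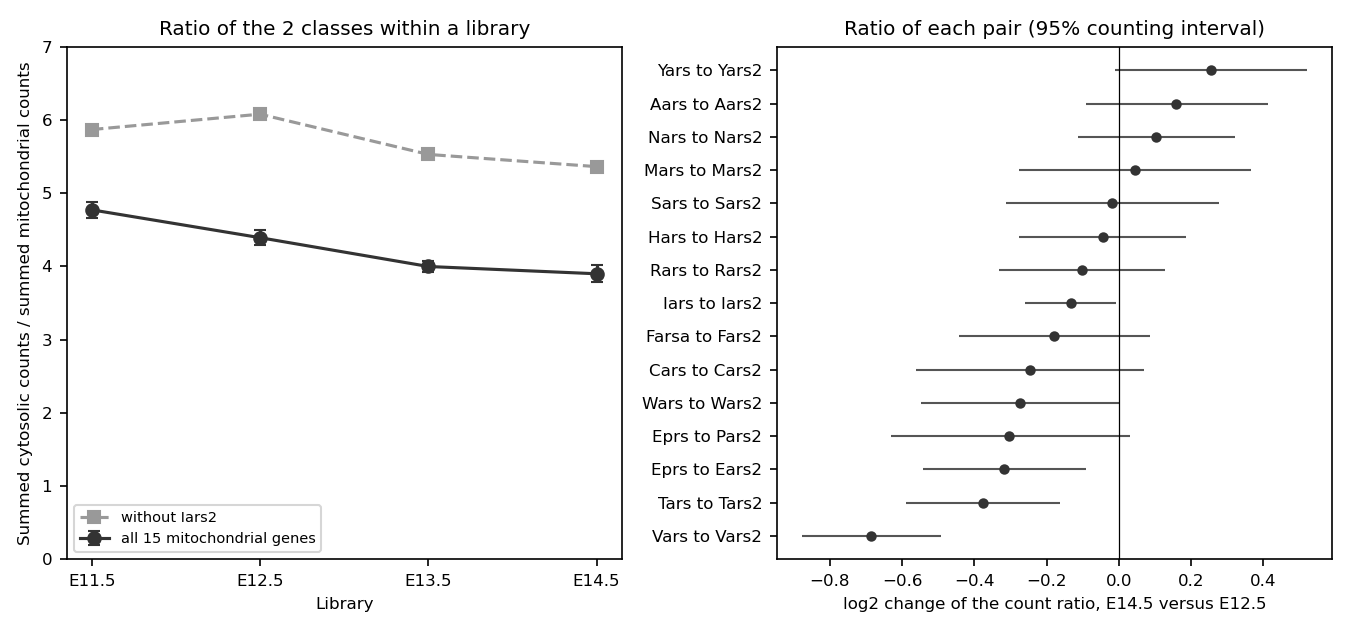
Summed cytosolic counts divided by summed mitochondrial counts in each library, from 4.77 at E11.5 to 3.90 at E14.5, with 95% counting intervals, the same without Iars2 (dashed), and on the right the log2 change of the count ratio of each of 15 pairs at E14.5 versus E12.5 with its interval. The ratio is lower in 11 pairs, most of all for Vars to Vars2.

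Pair by pair, the log2 ratio of cytosolic to mitochondrial counts was lower at E12.5 than at E11.5 beyond counting error in 4 of 15 pairs and higher in 3. Beside Iars to Iars2, those lower were Farsa to Fars2 at -0.45 (-0.68 to -0.21), Yars to Yars2 at -0.32 (-0.54 to -0.11) and Wars to Wars2 at -0.29 (-0.52 to -0.06). Those higher were Eprs to Pars2 at 0.31 (0.03 to 0.59), Vars to Vars2 at 0.23 (0.06 to 0.39) and Rars to Rars2 at 0.20 (0.02 to 0.39). At E13.5 the ratio was lower than at E12.5 in 12 of 15 pairs, in 4 of them beyond counting error. These were Vars to Vars2 at -0.29 (-0.45 to -0.13), Hars to Hars2 at -0.29 (-0.48 to -0.10), Rars to Rars2 at -0.27 (-0.45 to -0.09) and Iars to Iars2 at -0.13 (-0.23 to -0.03). Yars to Yars2, at 0.29 (0.08 to 0.50), was the 1 pair that was higher beyond counting error. From E13.5 to E14.5 the pairs went both ways, with a median change of -0.01. Vars to Vars2, at -0.40 (-0.58 to -0.21), and Tars to Tars2, at -0.22 (-0.42 to -0.01), were lower beyond counting error, and Nars to Nars2, at 0.25 (0.04 to 0.46), and Hars to Hars2, at 0.24 (0.02 to 0.47), were higher.

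Between E12.5 and E14.5 the ratio was lower in 11 pairs, in 4 beyond counting error, and higher beyond it in 0. Vars to Vars2 changed most, by -0.69 (-0.88 to -0.49), and its TPM ratio was 5.49, 6.43, 5.26 and 3.99 in order of age. Tars to Tars2, the threonyl pair, changed by -0.38 (-0.59 to -0.16), Eprs to Ears2 by -0.32 (-0.54 to -0.09) and Iars to Iars2 by -0.13 (-0.26 to -0.01). Hars and Hars2, whose starts face away from each other across 26 bases, had a TPM ratio between 2.16 and 2.64 in the 4 libraries. From E12.5 to E13.5 their log2 fold changes were -0.21 and 0.08, and over the next day 0.14 and -0.10.

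The 8 synthetases of the multi-synthetase complex, Dars, Eprs, Iars, Kars, Lars, Mars, Qars and Rars, had a median log2 fold change of 0.18, -0.14 and -0.05 from day to day. The 12 cytosolic genes outside it had 0.06, -0.09 and -0.07. Between E12.5 and E14.5 all 8 complex genes were lower beyond counting error, from -0.33 for Kars to -0.11 for Qars, and so were 8 of the 12 others, with a background of 29.7%. The scaffold genes of the complex did not follow a single course. Aimp1 stood at -0.01 at E12.5 versus E11.5 and 0.05 at E14.5 versus E12.5, and Aimp2 at -0.02 and -0.15. Eef1e1, another scaffold, stood at 0.50 (0.34 to 0.67) and -0.39 (-0.59 to -0.19).

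Other genes of translation show how far these changes reached. The 5 cytosolic elongation factor genes had medians of 0.06, -0.03 and 0.01 from day to day and 0 DEGs. The 76 mitochondrial ribosomal protein genes had medians of 0.04, -0.07 and 0.03 and 0 DEGs. From E12.5 to E14.5, 50 of them were below 0, with a median of -0.07, against 8 of 15 and -0.03 for the mitochondrial synthetases. Of 9 mitochondrial translation factors, 1 was a DEG, Mtrf1l, a peptide release factor, which was higher at E14.5 versus E13.5 by 1.12 (0.98 to 1.25), with 1128, 762, 884 and 901 counts. Its level of 32.9, 24.3, 22.3 and 47.9 CPM ordered the libraries as did their rRNA share of 17.7%, 8.90%, 8.72% and 48.9%. The part of rRNA in its counts was not tested.

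The mitochondrion has no glutaminyl enzyme of its own and corrects glutamate on that tRNA with an amidotransferase. Its subunit genes Qrsl1, Gatb (listed as Pet112) and Gatc stood at 0.37, 0.30 and 0.01 at E12.5 versus E11.5. At E14.5 versus E12.5 Qrsl1 stood at -0.51 (-0.80 to -0.22), where Gatb was at 0.10 and Gatc at -0.09, and 0 were DEGs in any comparison. Of 7 relatives of the synthetases, 0 were DEGs in any comparison. Among them Tarsl2, another threonyl enzyme of the cytosol, stood at 0.47 (0.27 to 0.68) at E12.5, and Tars itself at -0.01 (-0.12 to 0.09).

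The listed ATF4 targets outside the family had DEGs at E12.5, where the synthetases had 0. Atf4 itself stood at 0.03, 0.20 and 0.01 from day to day. Of 24 listed genes, 23 were tested at E12.5, with a median of 0.28. Of these, 4 were called up, namely Trib3, a stress-induced pseudokinase (1.82), Stc2, a secreted glycoprotein (1.55), Slc7a5, a transporter of large neutral amino acids (1.42), and the transcription factor Atf3 (1.02). Vldlr, a lipoprotein receptor, was called down (-1.91). These counts stand against the 7.16% and 7.15% of all genes tested. In the other comparisons 0 of the list were called. Asns, the asparagine synthetase, a classical ATF4 target, stood at -0.10 at E12.5 and -0.37 (-0.51 to -0.23) at E14.5 versus E13.5. Xpot, which exports tRNAs from the nucleus, stood at 0.23, -0.06 and -0.26.

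The element that ATF4 binds with a C/EBP partner was looked for in the 250 bases before the RefSeq start (GRCm38.p6) as TGATGNAA on both strands. A window was found for 26 of the 35 genes. The letters were held by 3 of 13 cytosolic genes, 0 of 13 mitochondrial genes and 3.91% of all 27025 genes with a window. Of the matches, 2 stretches are printed to show the letters found in the family, each 5′ to 3′ on the strand of its gene, with the match, in both the reverse complement, in capitals.
Gars, chr6:55037960-55037989, plus strand: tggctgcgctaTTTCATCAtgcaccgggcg
Tars, chr15:11399659-11399688, minus strand: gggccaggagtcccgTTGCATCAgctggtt
These matches begin 30 and 15 bases before the start. The log2 fold changes of these genes differed at E12.5 versus E11.5, at 0.25 (0.16 to 0.34) for Gars and -0.01 for Tars. At E14.5 versus E12.5 the values lay close together, at -0.20 (-0.30 to -0.10) and -0.23 (-0.36 to -0.10). A match describes these letters and not binding.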

How the data were processed

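Total RNA of 4 pooled gonad samples, 1 library per time point, was sequenced with the SEQuoia Complete stranded kit. Reads were trimmed with cutadapt, aligned with STAR to mm10, deduplicated by molecular identifier with UMI-tools and counted per gene with featureCounts by the authors, and the deposited counts are whole numbers that were not normalized. The deposited TPM and RPKM were computed by the authors from these counts and exon lengths, and RPKM served only to check the tables. Versions, annotation release and strand setting are not given in the sources used here.

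The test was edgeR 4.0.16 (R 4.3.3) over all features that passed its expression filter, with TMM scaling, the exact test at a preset biological coefficient of variation of 0.1, and FDR by Benjamini-Hochberg. Without replicates, no P-value for a condition can be had. Intervals are 95% and cover counting error only. They are exact for fold changes and for the summed ratio within a library. For changes of pair ratios they are conditional exact, and for changes of the summed ratio they come from log odds. A count of 0 allows up to 3 counts. DESeq2 1.42.0 supplied alternative size factors. The edgeR step alone was tried on simulated counts, drawn at the same preset variation of 0.1, which cannot show how calls behave at another variation. Named genes are the highest and lowest by mean TPM and by fold change in each class. Genes of other lists are named where called or among the largest changes, and Atf4, Asns, Xpot, Gatc, Aimp1 and the further synthetases with intervals were chosen after their values were seen. Members and gene lists were chosen with earlier results of these data known. A correlation with the amino acid make-up of proteins was planned and not run, since no protein table was used here. The sequence of 1 promoter match is not reported here.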

Additional observations from a re-analysis of the deposited data

How the results depend on the processing

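No paired analysis was possible because each time point has 1 library, and for the same reason no replicate could be left out. Alternative scalings were DESeq2 size factors, TMM over 4 libraries, and total counts stripped of rRNA and of the 10 top genes per library. With these, members beyond counting error kept their direction, while some members near 0 changed sign. With these, and with no filter or a minimum of 10 counts, 0 members were called and counts of genes stayed within 1.5 times. The direction of single members was not compared under the filter settings. The preset variation sets the number of DEGs. For the 3 steps from day to day and then for E14.5 versus E12.5 it was 2749, 360, 925 and 1478 at 0.1, then 1822, 54, 479 and 817 at 0.2, and 286, 1, 31 and 72 at 0.4, with 0 synthetases called throughout.

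Total counts and deposited TPM carry the rRNA content of a library. With total counts, 11385 genes were called at E14.5 versus E13.5 (261 up, 11124 down) and 10233 at E14.5 versus E12.5 (379 up, 9854 down), against 812 up and 113 down, and 1206 up and 272 down, under TMM. These calls held 31 and 30 synthetases. The cytosolic median was 0.23 with total counts and 0.36 with TPM at E12.5 versus E11.5, 0.034 with TPM at E13.5 versus E12.5, -1.13 and -1.69 at E14.5 versus E13.5, and -1.24 and -1.69 at E14.5 versus E12.5. The mitochondrial median was 0.37 with TPM at E12.5, then -1.10 with total counts and -1.66 with TPM at E14.5 versus E13.5, and -1.08 and -1.53 at E14.5 versus E12.5. Genes below 0 at E12.5 numbered 1 with total counts and 0 with TPM in either class. At E13.5 they numbered 8 cytosolic with TPM, and 3 mitochondrial with total counts and 2 with TPM. All 15 mitochondrial genes were below 0 in both E14.5 comparisons with either. Among members beyond counting error, signs turned at E12.5 for Kars (0.085 with total counts, 0.21 with TPM), Yars (0.0025 and 0.13), Wars (0.076 with TPM) and Rars2 (0.11 with TPM). Among such members they turned with TPM at E13.5 for Eprs (0.058), Gars (0.038), Nars (0.038) and Iars (0.0092), and Vars2 stood at -0.91 with total counts and -1.47 with TPM at E14.5 versus E13.5. Without Iars2, the summed ratio at E12.5 changed by 0.051 in place of -0.12.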
